A study of Mus musculus with 45 samples.

Results

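Cdh26, Glod5, Slc14a1, Camk2b, Lancl3, Rundc3b and Sgcd are 7 mouse genes that were lower in CT26 tumours of mice given serplulimab with HLX53 than in tumours of mice given vehicle, and they are described here over 15 treatment groups. They were found by symbol, 7 of the 47729 genes listed in each of 2 deposited expression tables, and all 7 passed the filter on low values in both (15070 genes were tested in T2106 and 14914 in T2215). They had been chosen for lower values with the combination, so their differences from vehicle, and all differences that involve the combination, are given as descriptions. For the 7 genes, tests are given only for differences between other groups and for how tumours of the same group differ from each other. The contrast by which each gene was chosen is not recorded, and the spread between tumours of a group enters every contrast of its experiment, so whether these tests are free of the choice is not known. Genes outside the 7 are also tested for the combination against vehicle.

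Every sample was RNA of a subcutaneous tumour of CT26, an undifferentiated colon carcinoma line, grown in BALB/c mice of the HuGEMM model with human PD-1 and human TIGIT knocked in, a genotype that all groups shared, vehicle included. In experiment T2106 there were 18 tumours in 6 groups of 3: serplulimab at 10 mg/kg with HLX53 at 10 mg/kg, serplulimab at 10 mg/kg with HLX53 at 5 mg/kg, pembrolizumab with tiragolumab, serplulimab, HLX53, and vehicle, with every antibody at 10 mg/kg unless stated. In experiment T2215 there were 27 tumours in 9 groups of 3: serplulimab with HLX53, pembrolizumab with HLX53, serplulimab with tiragolumab, pembrolizumab with tiragolumab, serplulimab, pembrolizumab, HLX53, tiragolumab, and vehicle, with every antibody at 10 mg/kg. Antibodies, or saline as the vehicle, were given by intraperitoneal injection from day 8 after the cells were implanted. Serplulimab and pembrolizumab bind PD-1, and HLX53 and tiragolumab bind TIGIT. Both targets are receptors that restrain T cells, and the human forms are carried by cells of the host mouse, not by the tumour line.

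The 7 genes have different known roles. Cdh26 encodes a cadherin, a membrane protein of cell adhesion that depends on calcium. Sgcd encodes delta-sarcoglycan, a membrane protein of the dystrophin complex, which links the cytoskeleton of muscle cells to the matrix around them. Slc14a1 encodes UT-B, a urea transporter known from red blood cells and kidney vessels. Camk2b encodes the beta subunit of calcium and calmodulin dependent protein kinase II, best known from neurons and also made in skeletal muscle. Lancl3 belongs to the LanC-like family, Rundc3b encodes a protein with a RUN domain, and Glod5 encodes a protein with a glyoxalase domain. In RNA of a whole tumour, fewer cells of a type and less RNA per cell cannot be told apart, and no value here shows which cells of the tumour held these transcripts.

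The genes moved together across tumours, so their promoters were set side by side. RefSeq promoter windows of 300 bases, from 250 before to 50 after the annotated start, were found for 5 of the 7 genes (Cdh26, Camk2b, Lancl3, Rundc3b and Sgcd). RefSeq's start lay within 71 bases of the gene's start in GENCODE M21 for Cdh26, Lancl3 and Rundc3b, 614 bases inside the gene for Camk2b and 609644 bases inside it for Sgcd, so the window of Sgcd is not at the GENCODE start. The 3 below were chosen to set the start poorest in CpG, that of Cdh26, beside CpG-rich ones of 2 other members. Capitals mark the letters GGGCGG, a GC box, and CCAAT, on either strand, so that CCGCCC and ATTGG are in capitals too.
Cdh26, GRCm38.p6 chr2:178430265-178430564, plus strand: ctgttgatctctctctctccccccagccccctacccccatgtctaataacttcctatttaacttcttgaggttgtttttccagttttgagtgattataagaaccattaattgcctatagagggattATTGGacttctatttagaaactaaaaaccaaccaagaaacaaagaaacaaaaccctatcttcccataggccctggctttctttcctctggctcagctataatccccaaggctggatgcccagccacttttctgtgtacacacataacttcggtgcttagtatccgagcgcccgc
Lancl3, GRCm38.p6 chrX:9199723-9200022, plus strand: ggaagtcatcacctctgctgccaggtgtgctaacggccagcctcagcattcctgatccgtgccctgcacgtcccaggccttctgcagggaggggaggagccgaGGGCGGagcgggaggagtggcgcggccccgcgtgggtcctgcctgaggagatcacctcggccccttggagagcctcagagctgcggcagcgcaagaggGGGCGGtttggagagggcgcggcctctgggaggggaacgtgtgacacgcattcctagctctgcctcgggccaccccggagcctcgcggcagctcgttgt
Rundc3b, GRCm38.p6 chr5:8622903-8623202, minus strand: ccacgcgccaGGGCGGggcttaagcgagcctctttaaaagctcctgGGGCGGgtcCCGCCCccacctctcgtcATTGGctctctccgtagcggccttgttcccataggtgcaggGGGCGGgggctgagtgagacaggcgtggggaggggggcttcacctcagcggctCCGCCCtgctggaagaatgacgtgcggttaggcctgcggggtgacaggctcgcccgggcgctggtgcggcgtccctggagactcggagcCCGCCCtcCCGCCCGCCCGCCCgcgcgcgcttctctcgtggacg
The Cdh26 window held 4 CpG and no GGGCGG, while the Rundc3b window held 32 CpG and 9 matches to GGGCGG and the Lancl3 window 23 CpG and 2 matches. Camk2b had 51 CpG and 3 matches, and Sgcd 12 CpG and 1 match. The median over all promoters was 7 CpG, and 35.7% of 32851 promoters held GGGCGG on either strand. CCAAT was found once each in the windows of Cdh26 and Rundc3b, against 37.4% of all promoters. The letters TATAAA were in none of the 5 windows (13.6% of all promoters), and CACGTG was in that of Sgcd alone (7.15% of all promoters). None of the 4 motifs, each searched on both strands, was shared by all 5 windows.

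By the GENCODE M21 annotation on GRCm38, all 7 are protein-coding genes. Cdh26 (ENSMUSG00000039155) lies on chromosome 2 from 178430531 to 178487366 on the plus strand, and Rundc3b (ENSMUSG00000040570) on chromosome 5 from 8490334 to 8622952 on the minus strand. Glod5 (ENSMUSG00000031163; 8004200 to 8018492, minus strand) and Lancl3 (ENSMUSG00000047344; 9199902 to 9268085, plus strand) are on chromosome X. Camk2b (ENSMUSG00000057897; 5969644 to 6066362, minus strand) and Sgcd (ENSMUSG00000020354; 46896253 to 47988969, minus strand) are on chromosome 11. Slc14a1 (ENSMUSG00000059336) lies on chromosome 18 from 78100091 to 78142119 on the minus strand. Lancl3 overlaps Gm14862 on the opposite strand over 5972 bases, and Rundc3b overlaps Gm42685 on its own strand over 2390 bases. Sgcd overlaps Gm12176 on the opposite strand over 875 bases and Gm23039 on its own strand over 161 bases. The sources used here do not say whether reads were counted by strand, and such counting would not separate overlaps on the same strand. Values of these 3 genes may therefore hold reads of the overlapping models.

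The summed FPKM of a library (fragments per kilobase of transcript, scaled to library size) ranged over 678636 to 911201, and 12918 to 14448 genes per library had 0.5 FPKM or more. The read depth is unknown. Some libraries stood apart by genes of other tissues, measured as a score, the mean of log2(FPKM + 0.5) over the genes of a list. The adipocyte score, over 10 of 11 listed fat cell genes in each experiment, was 5.30 to 5.62 in the 3 T2106 tumours of serplulimab with HLX53 at 10 mg/kg and 5.59 in replicate 2 of the 5 mg/kg group, against at most 3.24 in vehicle tumours. In T2215 it reached 6.45 in replicate 2 of serplulimab with HLX53 and 6.29 in replicate 1 of serplulimab, against 0.92 to 4.19 in vehicle tumours. Skeletal muscle genes scored 9.73 in serplulimab replicate 1 and 4.05 in pembrolizumab with tiragolumab replicate 3 of T2215, against −0.56 to −0.43 in vehicle tumours. Of 12 listed epithelial genes, 1 to 6 reached 0.5 FPKM in the vehicle tumours of T2106 and 2 to 9 in those of T2215. The E-cadherin gene Cdh1 had 0.345 ± 0.0334 FPKM in T2106 vehicle tumours and 0.655 ± 0.444 FPKM in those of T2215 (SD, n = 3 each). The keratin gene Krt18 was not low, with at least 8.52 FPKM in every T2106 tumour and at least 4.49 FPKM in every T2215 tumour. The epithelial score, over 10 of 12 listed genes, was 2.82 to 3.26 in T2106 tumours given the combination at 10 mg/kg, against −0.38 to 0.76 in vehicle tumours. In T2215 the ranges overlapped, at 0.03 to 3.34 with serplulimab and HLX53 and −0.34 to 1.42 with vehicle. CT26 is a carcinoma line. Not all of these epithelial markers were low in the vehicle tumours. In T2106 their score was higher with the combination at 10 mg/kg, where the 7 genes were lower. Whether the 7 genes mark tumour cells was not tested.

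In T2106 Cdh26, Glod5 and Slc14a1, the 3 of the 7 with the highest FPKM in vehicle tumours, were lower in tumours given serplulimab with HLX53. Cdh26 had 0.645, 8.56 and 1.23 FPKM in the tumours given serplulimab with HLX53 at 10 mg/kg, against 28.0, 31.7 and 23.2 FPKM in vehicle tumours. Glod5 had 0.50, 12.4 and 1.5 FPKM with the combination at 10 mg/kg, against 22.6, 25.4 and 24.6 FPKM with vehicle. Slc14a1 had 2.79, 11.3 and 2.08 FPKM with the combination, against 26.4, 27.3 and 30.9 FPKM with vehicle. Replicates 1 and 3 were low for all 3 genes and replicate 2 lay between them and the vehicle tumours, with no overlap of the groups. With HLX53 at 5 mg/kg the spread was wider: Cdh26 had 10.4, 0.122 and 15.1 FPKM, Glod5 17.1, 0.561 and 19.3 FPKM, and Slc14a1 14.2, 1.18 and 30.3 FPKM. Replicate 2 of that group was the lowest of all 18 tumours for Cdh26 and Slc14a1.

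The other 4 genes were low in the same tumours. Sgcd had 2.99, 5.76 and 2.99 FPKM with the combination at 10 mg/kg, against 13.3, 8.20 and 10.8 FPKM with vehicle. Camk2b had 0.179, 0.729 and 0.224 FPKM with the combination, against 2.50, 2.05 and 1.91 FPKM with vehicle. For the delta-sarcoglycan and kinase genes, as for the 3 above, replicate 2 was the highest combination tumour. Rundc3b had 0.697, 1.05 and 0.637 FPKM, against 2.28, 1.75 and 2.60 FPKM with vehicle. Lancl3 had 0.415, 0.708 and 0.302 FPKM, against 1.52, 1.23 and 1.53 FPKM with vehicle. The groups of the combination at 10 mg/kg and of vehicle did not overlap for any of the 7 genes, and 33.6% of all tested genes were lower in all 3 of these combination tumours than in all 3 vehicle tumours. In the 5 mg/kg group, replicate 2 was again the lowest of its group for all 4, at 3.28 FPKM for Sgcd, 0.262 for Camk2b, 0.561 for Rundc3b and 0.26 for Lancl3, the last 2 being the lowest of all 18 tumours.

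**Figure D1:**
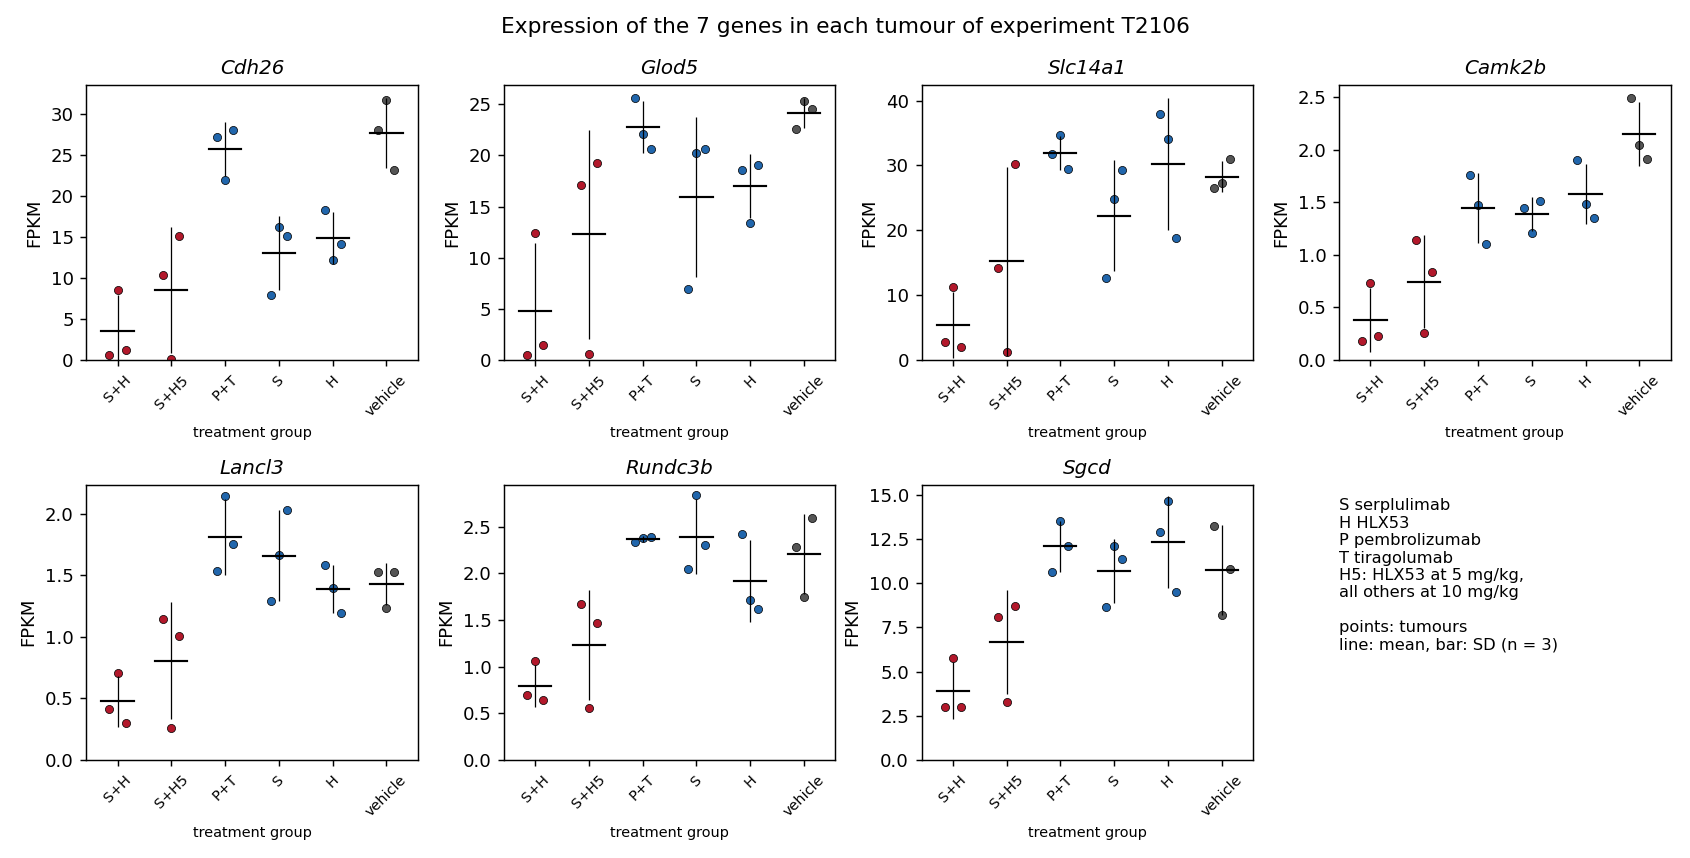
FPKM of the 7 genes in each of the 18 tumours of T2106 by treatment group, with the mean and SD of 3 tumours. Tumours given serplulimab with HLX53 at 10 mg/kg (left in each panel) lie below the vehicle tumours (right) for every gene, and the 5 mg/kg group holds 1 tumour, replicate 2, as low as they are.

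As log2 fold changes over vehicle on the log2(FPKM + 0.5) scale, the combination at 10 mg/kg had −3.41 ± 0.94 (SE) for Cdh26, −3.06 ± 0.97 for Glod5 and −2.63 ± 0.80 for Slc14a1. The values were −1.64 ± 0.27 for Camk2b, −1.38 ± 0.32 for Sgcd, −1.07 ± 0.24 for Rundc3b and −1.0 ± 0.26 for Lancl3. The scale understates the change of Camk2b and Lancl3, which lay near or below the added 0.5 FPKM with the combination. By limma with Benjamini-Hochberg adjustment over all genes, 7 of 7 were called lower, where 20.6% of all tested genes were called lower and 23.4% higher. The genes were chosen by their lower expression values with the combination, in a contrast that is not recorded, so the count is no evidence. The call rested on a few tumours: without replicate 1 or without replicate 3 of the combination, 1 of 7 (Camk2b) was called, among 351 and 871 genes called in all instead of 6633. Without any 1 vehicle tumour, 5 of 7 were called, all but Glod5 and Slc14a1. The calls over all genes in those fits are not given here, so that count shows only that the calls moved. With the adipocyte score in the model, 0 of 7 were called, among 3 genes called in all, and the log2 fold changes lay between −1.12 and −0.06. The group and its fat genes cannot be told apart in that fit. With HLX53 at 5 mg/kg the log2 fold changes over vehicle were −2.56 ± 0.94 for Cdh26, −1.78 ± 0.97 for Glod5, −1.65 ± 0.80 for Slc14a1 and −1.16 ± 0.27 for Camk2b, and between −0.73 and −0.64 for the other 3. None of the 7 was called there, where 1.02% of all genes were, and the groups did not overlap for 5 of the 7, all but Slc14a1 and Sgcd, where 16.3% of all genes were lower without overlap.

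The single agents and the pair of pembrolizumab with tiragolumab had higher means than the combination in T2106. Cdh26 averaged 13 ± 4.5 FPKM with serplulimab, 14.8 ± 3.12 with HLX53 and 25.7 ± 3.31 with pembrolizumab and tiragolumab, against 27.6 ± 4.27 with vehicle (SD, n = 3 each). Glod5 averaged 15.9 ± 7.81 FPKM with serplulimab, 17.0 ± 3.14 with HLX53 and 22.8 ± 2.56 with the pair, against 24.2 ± 1.44 with vehicle. All 3 serplulimab tumours and all 3 HLX53 tumours lay below all 3 vehicle tumours for Cdh26, Glod5 and Camk2b, 3 of the 7. Of all tested genes 16.6% did so with serplulimab and 10.3% with HLX53. Slc14a1 averaged 22.3 ± 8.61 FPKM with serplulimab, 30.3 ± 10.1 with HLX53 and 31.9 ± 2.62 with the pair, against 28.2 ± 2.39 with vehicle, and these groups overlapped vehicle. For Lancl3, Rundc3b and Sgcd each of the 3 groups overlapped vehicle as well, with 1 exception, Lancl3, which was higher in all 3 tumours of pembrolizumab with tiragolumab (1.54, 2.14 and 1.75 FPKM) than in vehicle tumours. Camk2b was lower in all 3 tumours of that pair (1.77, 1.47 and 1.10 FPKM) than in vehicle tumours. With that pair 7.41% of all tested genes were higher and 16.4% lower than vehicle without overlap. None of the 7 genes was called in these 3 comparisons, where 0%, 0.00664% and 0% of all genes were called. For all 7 genes the lowest group means were those of the combination, lower with HLX53 at 10 mg/kg than at 5 mg/kg. Between the 10 and 5 mg/kg groups the log2 differences lay between −1.28 ± 0.97 for Glod5 and −0.36 ± 0.26 for Lancl3.

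Serplulimab at 10 mg/kg with HLX53 at 10 mg/kg was also set against its own components and the other pair, as further descriptions that share the combination's tumours. Against serplulimab alone the log2 differences were −1.39 ± 0.32 for Sgcd, −1.16 ± 0.24 for Rundc3b, −1.16 ± 0.27 for Camk2b and −1.15 ± 0.26 for Lancl3. Cdh26 had −2.30 ± 0.94, with overlapping groups, since 1 combination tumour had 8.56 FPKM and 1 serplulimab tumour 7.86 FPKM. Against HLX53 alone the differences lay between −2.67 ± 0.80 for Slc14a1 and −0.90 ± 0.24 for Rundc3b, and against pembrolizumab with tiragolumab between −3.31 ± 0.94 for Cdh26 and −1.16 ± 0.24 for Rundc3b.

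T2215 held the same treatment at 10 mg/kg. Cdh26 had 9.47, 1.78 and 11 FPKM with serplulimab and HLX53, against 24.8, 16.5 and 20.2 FPKM with vehicle. Glod5 had 6.51, 1.97 and 12.4 FPKM with the combination, against 14.2, 12.9 and 15.5 FPKM with vehicle. Camk2b had 1.06, 0.257 and 1.17 FPKM with the combination, against 1.79, 1.28 and 2.38 FPKM with vehicle. The adhesion, glyoxalase domain and kinase genes thus had all 3 combination tumours below all 3 vehicle tumours. Lancl3 had 1.16, 0.358 and 1.39 FPKM, against 1.48, 2.33 and 1.81 FPKM with vehicle. Its groups did not overlap either, which makes 4 of the 7, where 15.9% of all genes were lower without overlap, and those of the other 3 genes overlapped. Slc14a1 had 19.2, 4.86 and 21.0 FPKM, against 15.2, 24.3 and 32 FPKM with vehicle, and there 2 combination tumours lay within the vehicle range. Rundc3b had 1.83, 0.547 and 2.44 FPKM with the combination, against 2.06, 2.70 and 2.48 FPKM with vehicle. Sgcd had 9.84, 3.12 and 10.8 FPKM with the combination, against 7.41, 11.7 and 10.9 FPKM with vehicle. Replicate 2 was the lowest of the 3 combination tumours for all 7 genes, and the lowest of all 27 tumours for all but Lancl3.

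The log2 fold changes over vehicle in T2215 were −1.70 ± 0.60 for Cdh26, −1.27 ± 0.59 for Glod5, −0.86 ± 0.41 for Camk2b and −0.83 ± 0.52 for Slc14a1. Lancl3 had −0.76 ± 0.34, Rundc3b −0.59 ± 0.31 and Sgcd −0.46 ± 0.34. None of the 7 was called by limma, and 0% of all genes were. The median of the 7 was −0.83, where the median of all tested genes was −0.04. In T2106 those medians were −1.64 and −0.04. The 7 had been chosen for lower values with the combination, so these medians are descriptions and no evidence. Without replicate 2 of the combination, Cdh26 had −0.96 and Sgcd 0.07.

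**Figure D2:**
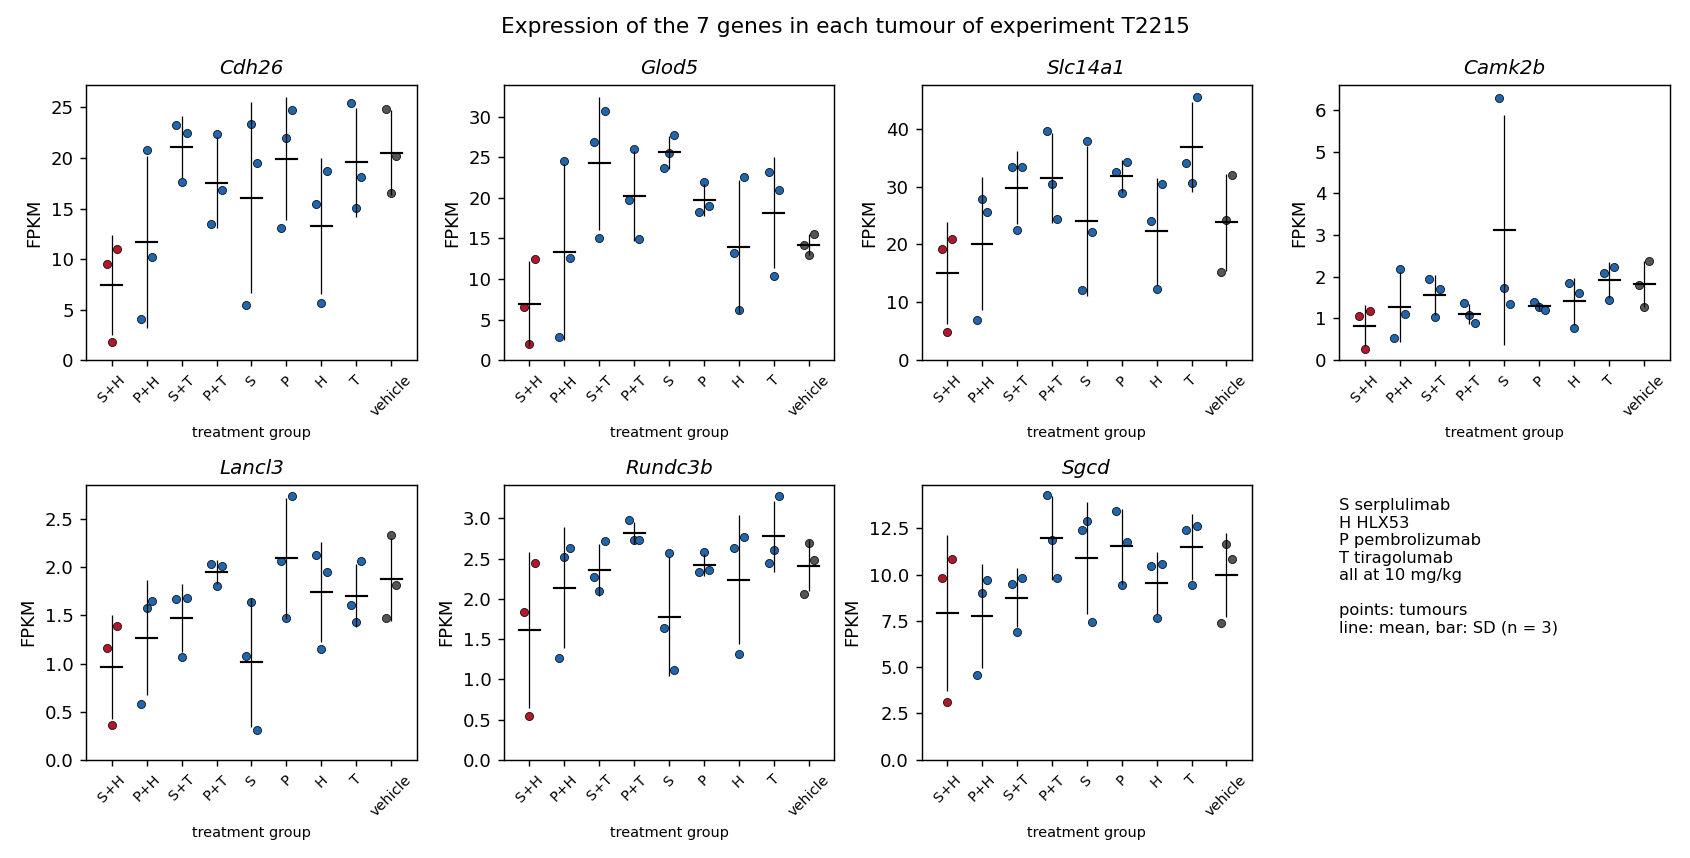
FPKM of the 7 genes in each of the 27 tumours of T2215 by treatment group, with the mean and SD of 3 tumours. Replicate 2 of serplulimab with HLX53 is the lowest tumour for all genes but Lancl3, and Camk2b has 1 high value of 6.30 FPKM in a serplulimab tumour.

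The pair of pembrolizumab with HLX53 also held a low tumour. Its replicate 1 had 4.02 FPKM of Cdh26, 2.83 of Glod5 and 6.92 of Slc14a1, where replicates 2 and 3 had 20.8 and 10.2, 24.6 and 12.6, and 27.8 and 25.6 FPKM. HLX53 replicate 2 was the next, among the 4 lowest of 27 tumours for 5 of the 7 genes, with 5.67 FPKM of Cdh26 and 6.23 of Glod5. No vehicle tumour was below 16.5 FPKM for Cdh26 or below 12.9 FPKM for Glod5. In the groups given tiragolumab, Cdh26 averaged 21.1 ± 3.07 FPKM with serplulimab and tiragolumab, 17.6 ± 4.49 with pembrolizumab and tiragolumab and 19.6 ± 5.37 with tiragolumab, against 20.5 ± 4.17 with vehicle (SD, n = 3 each). Glod5 averaged 24.3 ± 8.16, 20.2 ± 5.52 and 18.2 ± 6.86 FPKM in those 3 groups, against 14.2 ± 1.3 FPKM with vehicle. For Slc14a1 the 3 groups had 29.8 ± 6.30, 31.5 ± 7.70 and 36.8 ± 7.78 FPKM, against 23.8 ± 8.39 with vehicle. None of the 7 was called by limma against vehicle with pembrolizumab and HLX53 (0.00671% of all genes), serplulimab and tiragolumab (0%) or pembrolizumab and tiragolumab (0.0134%). Rundc3b with pembrolizumab and tiragolumab had 2.97, 2.74 and 2.74 FPKM, against 2.06, 2.70 and 2.48 FPKM with vehicle.

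With serplulimab alone the 7 genes did not share a direction in T2215. Glod5 was higher than vehicle in all 3 tumours, at 23.7, 25.5 and 27.7 FPKM with serplulimab, against 14.2, 12.9 and 15.5 FPKM with vehicle, a log2 fold change of 0.83 ± 0.59. Of all tested genes 2.21% were higher without overlap there. Lancl3 had 1.08, 1.64 and 0.311 FPKM with serplulimab, against 1.48, 2.33 and 1.81 FPKM with vehicle, a log2 fold change of −0.75 ± 0.34. Camk2b had 6.30, 1.72 and 1.34 FPKM with serplulimab, against 1.79, 1.28 and 2.38 FPKM with vehicle. The value of 6.30 FPKM came from replicate 1, the tumour with the skeletal muscle score of 9.73 and 19998 FPKM summed over 10 muscle genes, and the part of muscle RNA in it was not tested. The same tumour had the lowest Cdh26 of its group, 5.41 FPKM against 23.3 and 19.5 FPKM in its other replicates.

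**Figure D3:**
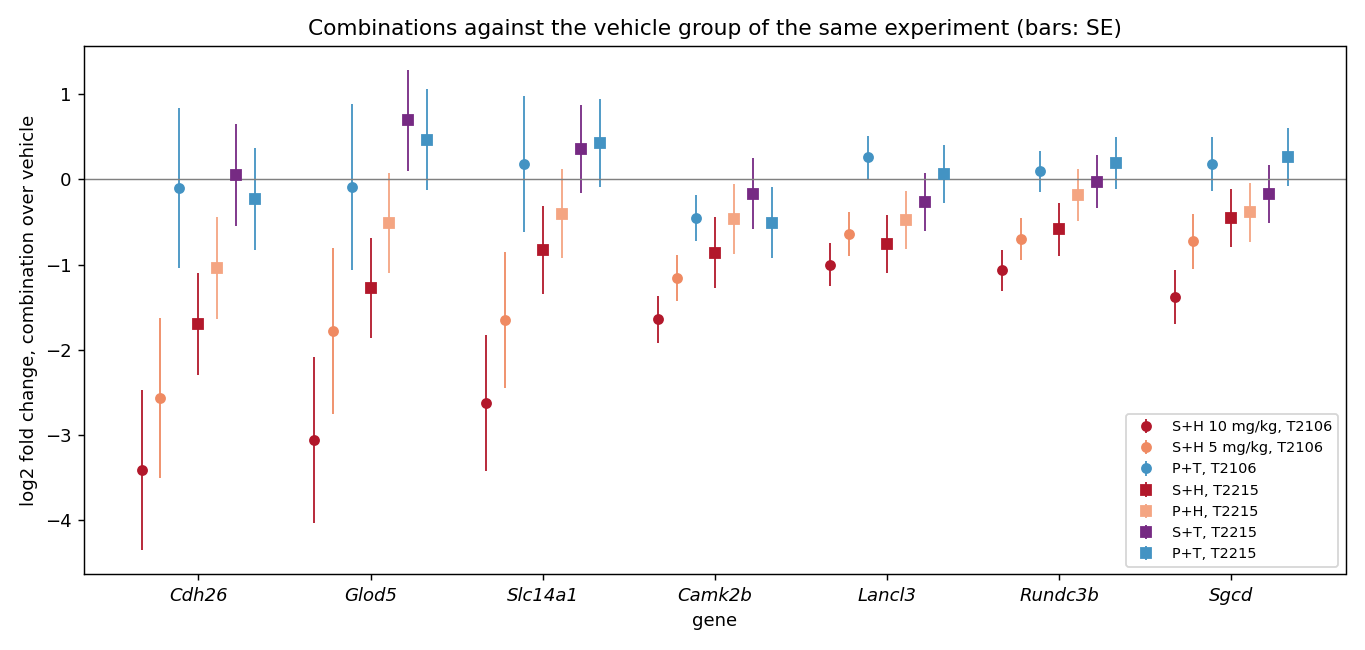
Log2 fold change of each combination over the vehicle group of its experiment for the 7 genes, with SE as bars (circles T2106, squares T2215). Serplulimab with HLX53 has the lowest value for every gene in each experiment, and the combinations with tiragolumab lie between −0.51 and 0.69.

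Differences between groups that include neither vehicle nor serplulimab with HLX53 were tested. In T2215, HLX53 against tiragolumab gave log2 differences of −0.79 ± 0.52 for Slc14a1, −0.67 ± 0.60 for Cdh26 and −0.46 ± 0.59 for Glod5. With pembrolizumab beside each, the differences were −0.97 ± 0.59 for Glod5, −0.83 ± 0.52 for Slc14a1, −0.81 ± 0.60 for Cdh26 and −0.65 ± 0.34 for Sgcd. None of the 7 passed in either comparison by limma's adjusted p, the smallest being 0.99 and 0.75, and 0% of all genes did, with 0 of the 7 at an unadjusted p under 0.05. Averaged over the 2 comparisons, a fit added after the values were seen, Slc14a1 had 21.2 FPKM in the 6 HLX53 tumours and 34.1 FPKM in the 6 tiragolumab tumours. Its log2 difference was −0.81 ± 0.37 and its adjusted p by limma 0.58. Cdh26 differed by −0.74 ± 0.43 and Sgcd by −0.45 ± 0.24, and none of the 7 passed. The 95% interval for Cdh26 beside pembrolizumab ran from −2.06 to 0.44.

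The PD-1 antibodies were compared in the same way. Serplulimab against pembrolizumab in T2215 gave Lancl3 at 1.08, 1.64 and 0.311 FPKM with serplulimab and 2.07, 1.48 and 2.74 FPKM with pembrolizumab, a log2 difference of −0.86 ± 0.34 with an adjusted p of 0.32 by limma. It was the only one of the 7 with an unadjusted p under 0.05 there. With tiragolumab beside each antibody, 0 of 7 passed, and the differences lay between −0.43 ± 0.34 for Sgcd and 0.34 ± 0.41 for Camk2b. In T2106 serplulimab against HLX53 gave differences between −0.45 ± 0.80 for Slc14a1 and 0.27 ± 0.24 for Rundc3b, none past the threshold. Of all genes 0% passed in each of these 3 comparisons by limma, and in the last 2 of them 0 of 7 had an unadjusted p under 0.05. Without serplulimab replicate 2, 1 of 7 passed in serplulimab against pembrolizumab. That count is not set beside the share of all genes in the same fit, so it shows only that the call moved.

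Tumours of the same group differed widely, and these differences were set against the cell division, T cell, macrophage and adipocyte scores. Each slope is the log2 change of a gene per unit of score, from a limma model that holds the group means fixed. The fits of all tumours include those of serplulimab with HLX53, for whose lower values the 7 were chosen. Whether the tests of these slopes are free of that choice is not known. Cell division genes (Mki67, Top2a, Cdk1 and 24 others) mark proliferating cells, tumour cells among them. In T2215, 5 of 7 genes rose with the cell division score, where 27.4% of all tested genes did. Cdh26 had the steepest slope, 2.32 ± 0.22 (adjusted p = 1.73e-07 by limma), followed by Glod5 at 2.11 ± 0.29, Slc14a1 at 1.64 ± 0.32, Rundc3b at 0.87 ± 0.21 and Sgcd at 0.76 ± 0.27. Camk2b at 0.68 ± 0.36 and Lancl3 at 0.67 ± 0.28 did not pass, with adjusted p of 0.12 and 0.051 by limma. Without serplulimab replicate 1, the tumour rich in muscle genes, the slope of Camk2b was 1.19 ± 0.18 and passed. The slope of Sgcd was 0.41 without replicate 2 of serplulimab with HLX53 and did not pass.

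**Figure D4:**
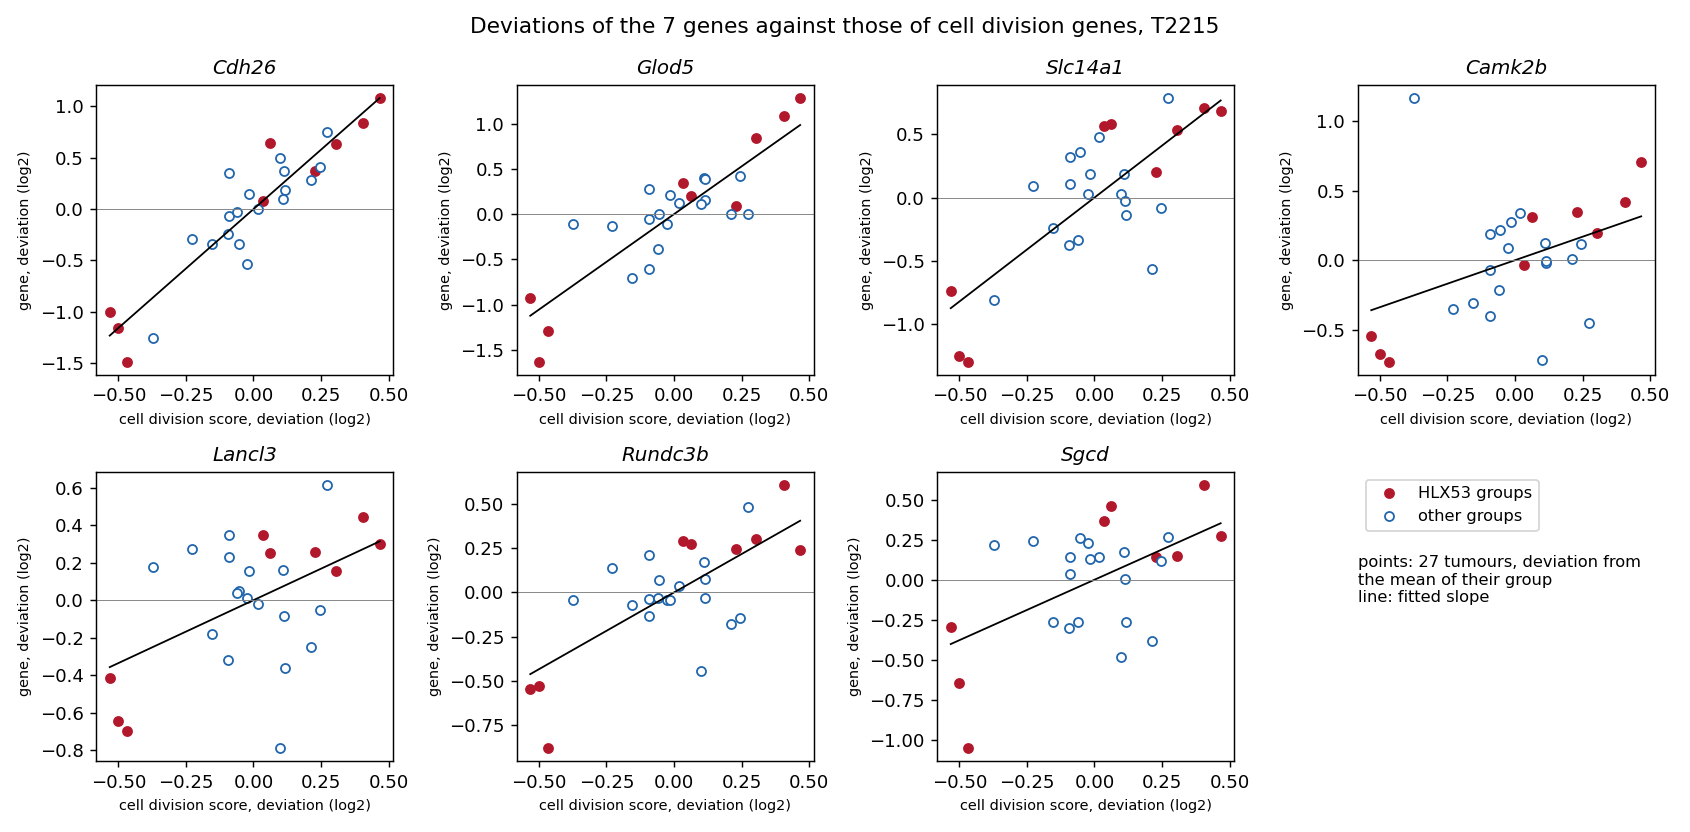
Deviation of each gene from its group mean, in log2(FPKM + 0.5), against the deviation of the cell division score in the 27 tumours of T2215 (filled points are the 9 tumours of groups given HLX53). Cdh26 has a slope of 2.32 in all points and in the open points, where the lowest open point is the muscle-rich serplulimab tumour, while for Lancl3, Rundc3b and Sgcd the open points show little slope.

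The groups given HLX53 held the tumours with the lowest and the highest deviations of the cell division score, so the fit was repeated without them, on 18 tumours, as an addition after the data were seen. Cdh26 kept its slope, at 2.32 ± 0.42 (adjusted p = 0.0074 by limma). It was the only one of the 7 to pass in that fit, where 5.01% of all genes rose with the score. That slope rested in turn on serplulimab replicate 1: without it as well, Cdh26 had 1.5 ± 0.46 (adjusted p = 0.13 by limma), and 0 of 7 passed, where 0.815% of all genes rose with the score. With that tumour kept in, Glod5 had 0.97 ± 0.45 and Slc14a1 0.84 ± 0.58, and Rundc3b (0.06 ± 0.35), Sgcd (−0.26 ± 0.42), Lancl3 (−0.29 ± 0.53) and Camk2b (−0.91 ± 0.64) lay around 0. In the fit of 18 tumours 917 genes passed in all, against 7690 in the fit of all tumours. Without the 4 libraries rich in muscle or fat genes, 5 of 7 passed, where 20.9% of all genes rose with the score, and Cdh26 had 1.91 ± 0.22.

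Genes of immune and fat cells ran the other way in T2215. All 7 fell with the macrophage score, where 24.8% of all genes did, with slopes from −0.95 ± 0.21 for Glod5 to −0.49 ± 0.18 for Camk2b. With the T cell score 5 of 7 fell (13.8% of all genes), led by Glod5 at −0.49 ± 0.17 and Lancl3 at −0.40 ± 0.07. Cdh26 (−0.21 ± 0.20, adjusted p = 0.44 by limma) and Slc14a1 (−0.38 ± 0.15, adjusted p = 0.071 by limma) did not pass there. With the adipocyte score 6 of 7 fell (23.1% of all genes), led by Slc14a1 at −0.30 ± 0.05, and Camk2b, at −0.06 ± 0.07, did not pass. The scores moved together in the low tumours: replicate 2 of serplulimab with HLX53 had a cell division score of 4.53, a macrophage score of 7.38 and a T cell score of 3.18, against ranges of 5.54 to 5.98, 5.59 to 6.04 and 1.34 to 2.68 in vehicle tumours. The slopes on the 4 scores are therefore not independent of each other. Without the groups given HLX53, 1 of 7 passed on the macrophage score (Sgcd, −0.79 ± 0.22), 3 of 7 on the T cell score (Sgcd, Lancl3 and Rundc3b) and 1 of 7 on the adipocyte score (Slc14a1, −0.24 ± 0.04). Of all genes 3.49%, 7.23% and 4.94% fell with these 3 scores in that fit. With serplulimab replicate 1 left out too, 4 of 7 passed on each of these 3 scores, namely Slc14a1, Lancl3, Rundc3b and Sgcd, where 5.62%, 13% and 4.92% of all genes fell with the macrophage, T cell and adipocyte scores.

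**Figure D5:**
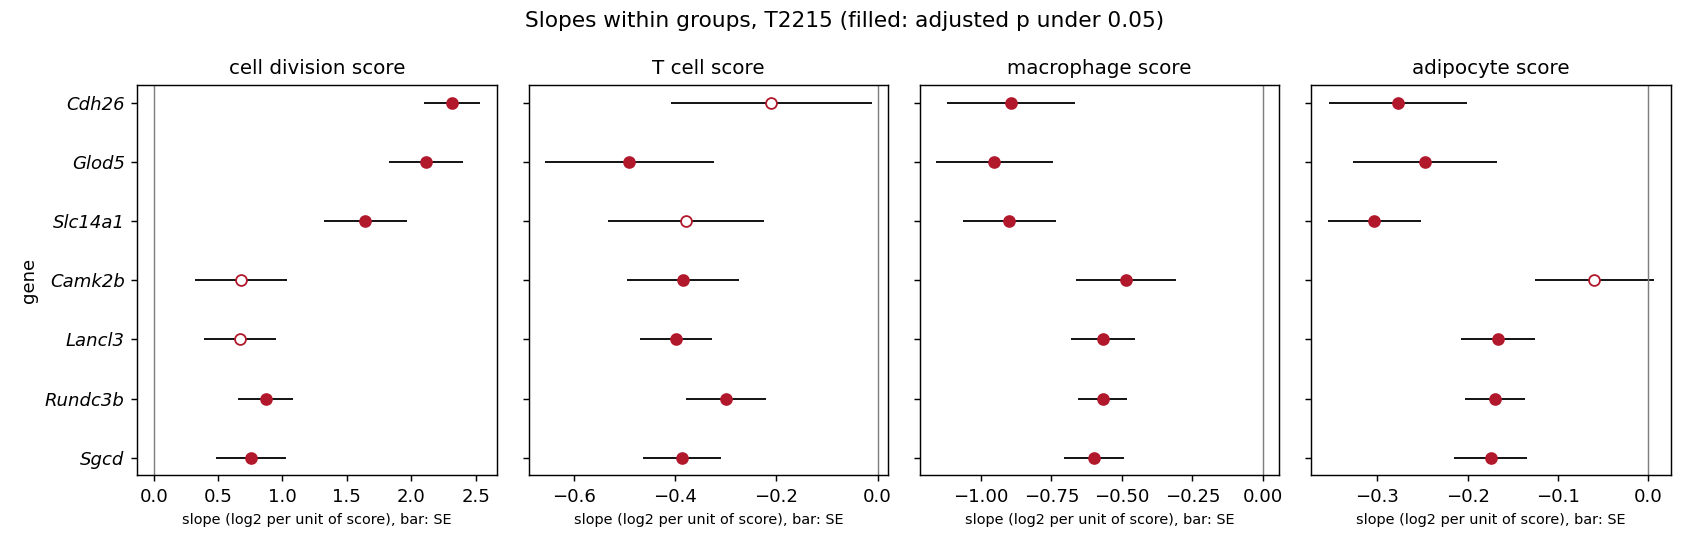
Slopes of the 7 genes on 4 scores within groups of T2215, in log2 per unit of score with SE, from 27 tumours. Slopes are above 0 on the cell division score and below 0 on the T cell, macrophage and adipocyte scores, and filled points passed the threshold.

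In T2106 the slopes pointed the same way, and many of them rested on 1 tumour. All 7 rose with the cell division score (27.6% of all genes), with slopes of 3.28 ± 0.19 for Glod5, 3.17 ± 0.16 for Cdh26 and 2.55 ± 0.28 for Slc14a1, and of 0.61 to 0.88 for the other 4. On the T cell, macrophage and adipocyte scores 6 of 7 fell in each (27.2%, 25.6% and 21.9% of all genes), and Camk2b was the exception in each. Replicate 2 of the 5 mg/kg group, with a cell division score of 4.07 against 5.36 and 5.49 in its other replicates and a T cell score of 4.37 against 2.79 and 1.01, carried much of this. Without it 3 of 7 passed on the cell division score (Glod5 at 3.73 ± 0.30, Cdh26 at 3.03 ± 0.28 and Slc14a1 at 2.22 ± 0.49), where 8.51% of all genes rose, and these 3 passed in each of the 18 fits that left out 1 tumour. On the T cell score 3 of 7 then passed (Cdh26, Slc14a1 and Sgcd; 12.4% of all genes fell), and 0 of 7 on the macrophage and adipocyte scores (6.65% and 0.47% of all genes). Without that tumour and the 3 of the combination at 10 mg/kg, 0, 1, 1 and 0 of 7 passed on the cell division, T cell, macrophage and adipocyte scores, where 0%, 8.08%, 3.59% and 0.221% of all genes passed in the direction of the 7. The slopes on the cell division score were then 2.84 ± 0.78 for Cdh26 and 3.80 ± 0.90 for Glod5.

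Among themselves the genes rose and fell in the same tumours. Over deviations from the group means, Pearson's r between pairs of the 7 had a median of 0.84 in T2106 (0.74 to 0.98, 21 pairs, 18 tumours) and of 0.74 in T2215 (0.28 to 0.88, 27 tumours). The median r over all pairs of tested genes was 0.0099 in T2106 and 0.0152 in T2215, and 4.45% and 4.85% of all pairs were above the median of the 7. The 7 had been chosen for lower values with the combination, whose tumours are among these, so the r of the 7 are descriptions. Without replicate 2 of the 5 mg/kg group the median of the 7 in T2106 was 0.65 (0.48 to 0.96), which 8.02% of all pairs exceeded. Without replicate 2 of serplulimab with HLX53 it was 0.64 in T2215 (0.0753 to 0.87), which 7.84% of all pairs exceeded. The lowest in T2215 was Cdh26 with Camk2b. In T2106 the 3 lowest tumours were the same for all 7 genes: replicate 2 of the 5 mg/kg group and replicates 1 and 3 of the 10 mg/kg group. In T2215 replicate 2 of serplulimab with HLX53 and replicate 1 of pembrolizumab with HLX53 were among the 4 lowest for all 7.

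The genes most like each of the 7 were taken by Pearson's r over the 27 tumours of T2215, among 12958 named genes tested in both tables, with models named Gm, Rik or -ps left out, and are given as descriptions. Cdh26 was closest to Fam216a (r = 0.96, and 0.97 over the 18 tumours of T2106), Ddx39, a gene of an RNA helicase (0.96 and 0.96), and Slc25a13, a mitochondrial carrier of aspartate and glutamate (0.95 and 0.97). Glod5 was closest to Fkbp3 (0.93 and 0.86), a peptidyl-prolyl isomerase. Slc14a1 was closest to Socs5 (0.96 and 0.97), a suppressor of cytokine signalling, Paics (0.95 and 0.91), an enzyme of purine synthesis, and Nfkb2 (0.95 and 0.98). Rundc3b was closest to Gatad1 (0.97 and 0.77), Hmga2, a chromatin protein (0.96 and 0.83), and Axl, a receptor tyrosine kinase (0.96 and 0.91). Lancl3 was closest to Asap2 (0.94 and 0.91), and Sgcd to Pabpc4 (0.92 and 0.88), a poly(A)-binding protein. Camk2b was closest to Prob1 (0.92 and 0.85), and also near Eno3 (0.87 and 0.83), the muscle enolase. These r share groups and libraries with each other.

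Relatives of the 7 genes were also set between the 10 mg/kg combination and vehicle in T2106, where 23.4% of all tested genes were higher and 20.6% lower. Of 15 other cadherin genes 9 were tested, and 3 were higher and 3 lower. Cdh11, a cadherin of mesenchymal cells, had 12.1 ± 5.72 FPKM with the combination and 0.443 ± 0.383 FPKM with vehicle, and E-cadherin Cdh1 had 3.58 ± 0.956 and 0.345 ± 0.0334 FPKM (SD, n = 3 each). N-cadherin Cdh2 had 8.67 ± 4.89 FPKM with the combination and 23.6 ± 2.16 FPKM with vehicle, and Cdh13 had 11.7 ± 4.01 and 23.9 ± 2.75 FPKM. Their log2 fold changes were 3.70 ± 0.88 (Cdh11), 2.25 ± 0.40 (Cdh1), −1.52 ± 0.49 (Cdh2) and −1.04 ± 0.25 (Cdh13), with adjusted p of 0.012, 0.0073, 0.025 and 0.012 by limma. In the dystrophin complex 8 of 11 other genes were tested. Sgce and Dmd were higher, at 2.77 ± 0.67 and 1.93 ± 0.49 in log2 fold change, and Dtna and Dag1 lower, at −1.34 ± 0.43 and −0.59 ± 0.10.

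The other families were smaller. Of the other CaMKII subunit and inhibitor genes 1 of 5 was lower (Camk2n1, an inhibitor of the kinase, −0.59 ± 0.20), while Camk2d, at 32.5 ± 5.12 FPKM with the combination and 57.5 ± 5.64 FPKM with vehicle, had an adjusted p of 0.052 by limma. Lancl2 was lower (8.55 ± 2.62 FPKM with the combination and 16.2 ± 0.673 FPKM with vehicle, −0.92 ± 0.22), and Lancl1 (−0.19 ± 0.12) and Rundc3a (0.20 ± 0.16) did not pass. Of 3 glyoxalase genes 0 passed, with Glo1 at 0.10 ± 0.18. The arginase genes Arg1 and Arg2, which macrophages can express, were both higher, at 2.60 ± 0.78 and 2.01 ± 0.56. These calls share the limits above, with 3 genes of all passing once the adipocyte score was in the model. In T2215 none of these relatives passed by limma, and 0% of all genes did.

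Genes of the cell lists were called in the same T2106 comparison, to be read beside 20.6% of all genes lower and 23.4% higher. Of 27 cell division genes 26 were lower (median log2 fold change −1.07). Of the tested markers 10 of 10 adipocyte, 13 of 14 fibroblast, 13 of 15 macrophage, 9 of 11 neutrophil, 7 of 8 cytotoxic cell, 8 of 11 endothelium, 10 of 10 epithelial, 4 of 5 keratinocyte genes were higher, and 0 of 2 skeletal muscle genes. Of the T cell genes 6 of 18 were higher, beside 23.4% of all genes. Summed over the adipocyte list, the 3 combination tumours had 1660 to 1886 FPKM, against 52.4 to 359 FPKM in the 3 vehicle tumours. Summed over 16 macrophage genes they had 8203 to 13782 FPKM, against 2087 to 3308 FPKM with vehicle. The part of these cells in the lower values of the 7 genes was not tested. In T2215 none of the listed genes passed for serplulimab with HLX53 against vehicle, where the summed adipocyte genes ranged over 98.1 to 3697 FPKM with the combination and 101 to 611 FPKM with vehicle.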

How the data were processed

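Total RNA of 45 CT26 tumours was sequenced as paired-end reads, per the labels' protocols. FastQC, Trimmomatic, STAR and Bowtie are listed in the submitters' processing notes, which also list hg19, mm10 and GRCh37 and give no role for any of them. The authors deposited log2 FPKM values, normalised separately for T2106 and T2215, per the file headers, and the sources used here do not name the program that made them. Values were returned to FPKM and fitted as log2(FPKM + 0.5) in limma 3.58.1 under R 4.3.3 (lmFit and eBayes with a trend), with all groups of an experiment in the fit. Genes reaching 0.5 FPKM in 3 or more libraries entered the tests, p-values were Benjamini-Hochberg adjusted over all of them, and 0.05 was the threshold. Two-sided tests were used, and p-values measure the spread between tumours. The fit was tested on simulated data with a capped spread and noise drawn separately for each gene. That test does not show how the fit performs at the spread of these tumours. No count and no depth was available, so no counting interval is given.

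The 7 genes, the gene lists and the tests were chosen with earlier results of these data known. The genes named are the 7, the tested members of their families, 3 genes most alike for each (Gm, Rik and -ps models left out), and cell list genes of high mean FPKM. Alternatives covered the added value, the filter, median centring, the groups fitted, the replicate number as a block, each tumour left out, and the adipocyte score as a covariate. Promoters are of RefSeq on GRCm38.p6.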

Additional observations from a re-analysis of the deposited data

Results flagged for a closer look

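Glod5 differed from vehicle in opposite directions with serplulimab alone in the 2 experiments. In T2106 every serplulimab tumour lay below every vehicle tumour, a log2 fold change of −0.736 (6.90, 20.3 and 20.6 FPKM with serplulimab, against 22.6, 25.4 and 24.6 FPKM with vehicle). In T2215 every serplulimab tumour lay above every vehicle tumour, a log2 fold change of 0.829 (23.7, 25.5 and 27.7 FPKM with serplulimab, against 14.2, 12.9 and 15.5 FPKM with vehicle). Of all tested genes 16.6% were lower without overlap with serplulimab in T2106, and 2.21% higher in T2215. Vehicle itself averaged 24.2 FPKM in T2106 and 14.2 FPKM in T2215. In T2215 all 3 pembrolizumab tumours (18.3, 22.0 and 19.0 FPKM) also lay above every vehicle tumour, where 3.43% of all genes did. Means were above vehicle in every T2215 treatment group without HLX53 and below it in every group given HLX53. The difference between the experiments was not tested.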

How the results depend on the processing

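With the 10 mg/kg combination in T2106, 7 of 7 genes were called lower than with vehicle, 4 with no filter on low values, 0 with the adipocyte score as covariate, and 1 to 7 with each tumour left out. In T2215 none was called under any alternative run, and the log2 fold change of Sgcd ranged over −0.752 to 0.0709 with tumours left out, turning sign without replicate 2 of the combination (adjusted p = 0.986 by limma). Of the 5 tested differences between other groups, 0 genes passed in all alternatives run except serplulimab against pembrolizumab, with 0 to 1 as tumours were left out. Slopes on the cell division, T cell, macrophage and adipocyte scores in T2106 passed for 7, 6, 6 and 6 genes. With tumours left out in turn the counts were 3 to 7, 3 to 7, 0 to 6 and 0 to 6, with 3 on the adipocyte score without replicate 3 of the 5 mg/kg group. Without 4 libraries that stood apart, chosen after seeing the data, they were 0, 1, 1 and 0, and with no filter the adipocyte count was 3. In T2215 the counts were 5, 5, 7 and 6, and 4 to 7, 4 to 6, 6 to 7 and 5 to 7 with tumours left out. Without the 3 groups given HLX53, chosen after seeing the data, they were 1, 3, 1 and 1, and without serplulimab replicate 1 as well 0, 4, 4 and 4. Fewer tumours were fitted in the last settings, and the cause of the other changes was not tested. The counts in this paragraph describe how the calls moved and are not set beside shares of all genes here. Depth is unknown, and 3 tumours a group limit every comparison.

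Whether the replicate numbers of the labels pair tumours is not known. Over same-numbered tumours, r of deviations ranged from −0.68 to 0.62 in T2106 (median −0.03, 11 of 45 pairs over 0.1). In T2215 it ranged from −0.74 to 0.72 (median −0.04, 42 of 108 pairs over 0.1). Tumours of different numbers were not compared, so these r cannot decide it. With the replicate block 7 and 0 genes were lower with the combination in T2106 and T2215, and 0 passed in each of the 5 other differences. The slope counts were then 7, 7, 7 and 6 in T2106 and 5, 5, 7 and 6 in T2215. These block counts are not set beside shares of all genes in the same fits, so they show only how far the calls moved.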
